A study of Mus musculus with 3 samples.

Results

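The genes of leukemia inhibitory factor (LIF) reception and STAT3 response were followed in mouse embryonic stem cells whose translation was blocked. They were 7 genes, listed by symbol, of the 32285 genes in the deposited count tables: the receptor genes Lifr and Il6st, the transcription factor gene Stat3, and the feedback and target genes Socs3, Socs2, Bcl3 and Sbno2. Each symbol matched a single gene identifier, and the rule uses symbols alone, but the list was drawn up with earlier results of these data known. All cells were E14 cells, an embryonic stem cell line of 129/Ola background, and all were grown in serum with recombinant mouse LIF at 1000 U/mL. The control library came from cells given ethanol for 6 h, at a percentage not given in the sources used here. The other libraries came from cells given cycloheximide, which stops ribosomes during elongation, at 250 µg/mL in 0.007% ethanol for 3 h or for 6 h. Treatment began 24 h after seeding, all cells were frozen and thawed before droplet barcoding, and an ethanol control of 3 h was not analysed here. Each group is 1 library, so nothing below has a replicate check and no test between conditions was possible. The intervals cover counting error alone and leave out variation between cultures and library preparations.

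As background, LIF binds the receptor chain LIFR, which then pairs with gp130, the chain encoded by Il6st and shared by the interleukin 6 family of cytokines. Kinases of the JAK family bound to these chains phosphorylate STAT3, which enters the nucleus and activates genes that hold mouse stem cells in self-renewal. Among its targets is Socs3, whose protein binds gp130 and the JAK kinases and shuts the signal down.

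Members were first placed on the genome, by GENCODE M21 on GRCm38, which matched 32158 of the 32285 identifiers. All 7 are protein-coding. Lifr (ENSMUSG00000054263) lies on chromosome 15 from 7090614 to 7197489 on the plus strand. Il6st (ENSMUSG00000021756) lies on chromosome 13 from 112464070 to 112510086 on the plus strand. Stat3 (ENSMUSG00000004040) and Socs3 (ENSMUSG00000053113) share chromosome 11, on the minus strand, from 100885098 to 100939540 and from 117966079 to 117970047. Socs2 (ENSMUSG00000020027) and Sbno2 (ENSMUSG00000035673) share chromosome 10, also on the minus strand, from 95385362 to 95417180 and from 80056992 to 80105571. Bcl3 (ENSMUSG00000053175) lies on chromosome 7 from 19808462 to 19822770 on the minus strand. Stat3 and Bcl3 alone among the members overlap another listed gene, in each case on the opposite strand. Stat5a, which overlaps Stat3, stayed between 0.637 and 0.713 CPM (UMIs scaled to the library total, explained below) in the 3 libraries. Of the genes overlapping Bcl3, Gm16174 stayed between 0.385 and 0.431 CPM, and Gm16175 had 0 UMIs in every library.

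The promoters of Socs3, Sbno2, Bcl3 and Il6st are shown because these genes span the responses described below, from the lowest to the highest ratio at 6 h. Sequences are the 250 bases before a RefSeq transcription start on GRCm38.p6, 5′ to 3′ on the strand of the gene. Capitals mark the letters TTCNNNGAA, the palindromic core that STAT proteins are known to bind, which reads the same on both strands.
Socs3, chr11:117969367-117969616, minus strand: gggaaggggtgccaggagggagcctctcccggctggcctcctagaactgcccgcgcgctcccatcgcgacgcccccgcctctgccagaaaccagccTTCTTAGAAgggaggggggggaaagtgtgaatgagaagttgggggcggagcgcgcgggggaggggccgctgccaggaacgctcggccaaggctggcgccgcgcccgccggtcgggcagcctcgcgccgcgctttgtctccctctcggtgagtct
Sbno2, chr10:80102703-80102952, minus strand: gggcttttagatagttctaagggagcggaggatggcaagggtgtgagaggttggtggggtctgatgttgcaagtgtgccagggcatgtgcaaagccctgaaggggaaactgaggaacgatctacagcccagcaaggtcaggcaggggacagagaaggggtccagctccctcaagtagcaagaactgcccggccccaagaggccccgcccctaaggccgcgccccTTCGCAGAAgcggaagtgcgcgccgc
Bcl3, chr7:19822756-19823005, minus strand: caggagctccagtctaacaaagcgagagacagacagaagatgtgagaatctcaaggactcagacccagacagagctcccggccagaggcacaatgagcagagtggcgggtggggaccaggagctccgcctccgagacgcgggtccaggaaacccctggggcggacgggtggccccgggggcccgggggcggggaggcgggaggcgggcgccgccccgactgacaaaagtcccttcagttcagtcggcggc
Il6st, chr13:112463820-112464069, plus strand: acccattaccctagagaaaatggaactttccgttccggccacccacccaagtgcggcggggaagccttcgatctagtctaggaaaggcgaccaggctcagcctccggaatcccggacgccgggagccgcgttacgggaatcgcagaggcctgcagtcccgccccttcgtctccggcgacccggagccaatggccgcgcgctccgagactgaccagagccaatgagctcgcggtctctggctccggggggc

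The window of Socs3 held 1 match, TTCTTAGAA, whose first base is 154 bases before the start. Sbno2 has 3 RefSeq starts in the table, and the window shown held TTCGCAGAA from 26 bases before the start. A further Sbno2 window, at the second of these starts, held TTCCCGGAA from 24 bases before it. No match was found in the windows of Lifr, Il6st, Stat3 or Bcl3, which says only that these letters are missing there. Counting the whole table, 2 of the 6 members with an entry had the motif in a window of 250 bases before to 50 after the start, against 9.55% of 27025 genes and 8.30% of 32851 windows. A match is a string of letters and was not tested as a binding site.

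Cells were taken as barcodes with at least 15000 unique molecular identifiers (UMIs) and 1 to 20% mitochondrial UMIs, which left 2187, 1739 and 2554 cells in the control, 3 h and 6 h libraries. They held 87.3% to 92.9% of each library's 115188502 to 150987519 UMIs, with a median of 43160 to 51726 UMIs per cell. The limit of 1% left out 62 control barcodes, 1 at 3 h and 8 at 6 h, and the mitochondrial share of the kept UMIs was 4.57%, 3.51% and 2.94% in that order. Libraries shared 1 to 3 kept barcodes in each pair. All 9 markers of pluripotent stem cells were present at 57.7 CPM or more in every library. Summed markers of fibroblasts or feeder cells stayed between 1.29 and 2.48 CPM, mostly Thy1, with Col3a1, Lum and Postn at 0. Summed endoderm markers stayed between 7.72 and 10.8 CPM, but single markers moved in opposite directions. Sox7 went from 5.55 to 1.32 and 0.299 CPM, and Gata4 from 1.88 to 2.42 and 3.35 CPM. Neuroectoderm markers summed to 74.7, 49.6 and 28.4 CPM, of which the tubulin gene Tubb3 gave 87.4%, 70.8% and 65.6%. Trophectoderm markers summed to 10.7, 19.0 and 21.1 CPM, of which Tfap2c gave 72.2%, 88.2% and 86.7%, with Elf5 at 0. Leukocyte markers summed to 10.1 to 13.2 CPM, mostly Cd68, while Ptprc had at most 0.00897 CPM. Mesoderm markers summed to 1.32 to 3.61 CPM, and markers of cells like those of the 2-cell embryo to at most 0.574 CPM. The part of these marker levels in the results was not tested.

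Levels are UMIs summed over the kept cells as CPM, which scales each library to the same total. Each UMI tags the 3′ end of 1 captured molecule, so values were not divided by gene length. Ratios are of CPM with a prior of 0.5 counts. Differences in RNA per cell and in scaling move all genes together: the median log2 ratio of the 7608 genes whose mean reached 10 CPM was 0.11 at 3 h and 0.17 at 6 h against the control. Scaling by the trimmed mean of M-values (TMM) brought these medians to 0.00023 and 0.011, and mean UMIs per cell brought them to 0.38 and 0.27. All 7 members passed that floor. A gene is called past 2-fold when its log2 ratio of CPM reaches 1 or -1.

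At 3 h no member was past 2-fold, where 4.32% of the 7608 genes were at least 2-fold higher and 0.513% at least 2-fold lower. By sign, 5 members lay above 0 and 2 below, where 64.1% of all genes lay above 0. The members had a median log2 ratio of 0.18, near the 0.11 of all genes. At 6 h Socs3 alone was past 2-fold, on the lower side, as were 2.41% of all genes, and no member was on the higher side, as were 8.65%. The median of the members at 6 h was -0.13 while that of all genes was 0.17. At that time 3 members lay above 0 and 4 below, where 64.1% of all genes lay above 0. These sign counts are by CPM and include values close to 0. They are Socs3 (-0.00038) and Bcl3 (0.0074) at 3 h, and Socs2 (0.0044) at 6 h. TMM put Bcl3 at -0.10 at 3 h and Socs2 at -0.15 at 6 h. From 3 h to 6 h, 6 of the 7 members were lower, where 57.7% of all genes lay above 0, and Socs3 was again the member past 2-fold. Across all genes, 0.657% were at least 2-fold lower and 0.145% at least 2-fold higher in that comparison, which had a median of 0.044 against -0.40 for the members. Both comparisons with the control share that library.

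**Figure D1:**
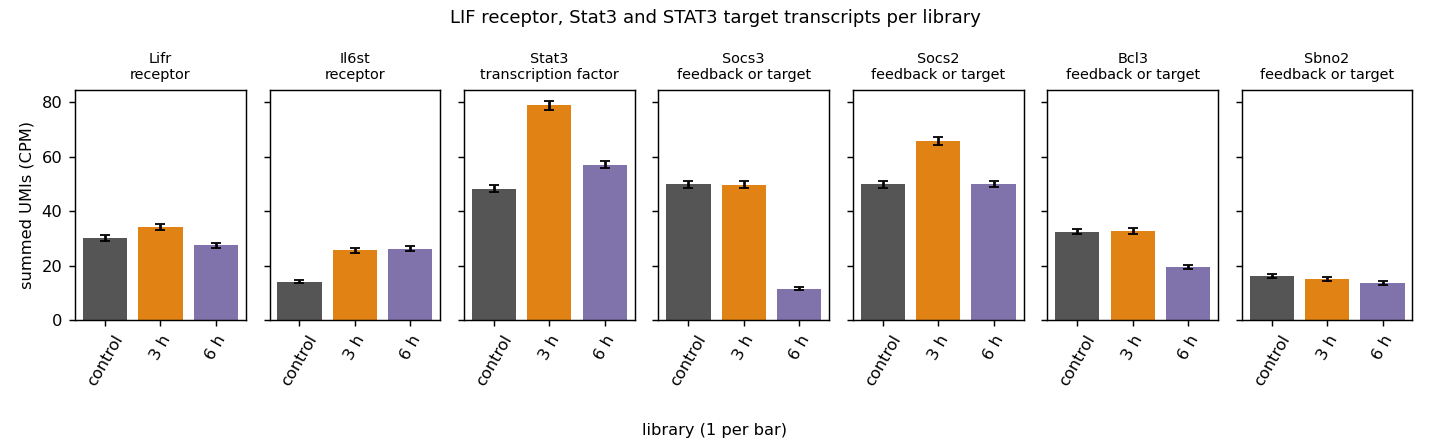
Summed UMIs of each member in CPM (vertical axis from 0) in the control, 3 h and 6 h libraries, 1 library per bar, with 95% exact Poisson intervals as error bars. Il6st goes from 14.1 to 25.6 and 26.3 CPM, Stat3 and Socs2 are highest at 3 h, and Socs3 drops to 11.6 CPM at 6 h.

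Il6st, which encodes the shared signalling chain gp130, was higher after cycloheximide at both times. The control had 14.1 CPM from 1576 UMIs (95% interval 13.5 to 14.9), the 3 h library 25.6 CPM (24.7 to 26.6) and the 6 h library 26.3 CPM (25.5 to 27.2). The treated libraries lay close together and both well above the control. Ratios to the control were 1.81-fold at 3 h (1.70 to 1.93) and 1.86-fold at 6 h (1.75 to 1.97), higher than those of 93.6% and 88.9% of all genes. TMM lowered the log2 ratios from 0.86 and 0.90 to 0.75 and 0.74. Mean UMIs per cell raised them to 1.13 and 1.00, which is past 2-fold. Between 6 h and 3 h the log2 ratio was 0.038, with an interval from -0.033 to 0.11.

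Lifr, the chain that binds LIF itself, moved little against the control and in no single direction. Its level was 30.1 CPM without cycloheximide (29.1 to 31.2), 34.0 CPM after 3 h (32.9 to 35.2) and 27.4 CPM after 6 h (26.6 to 28.3). The 3 h library was the highest and the 6 h library the lowest. Its log2 ratio of 0.18 at 3 h (0.11 to 0.24) lay near the median of all genes, and its -0.13 at 6 h (-0.20 to -0.067) lay above that of 26.2% of genes. The ratio between 6 h and 3 h was -0.31 (-0.38 to -0.24), with 9.28% of genes lower. Of the UMIs of the receptor pair, Il6st gave 31.9% with ethanol alone (30.6 to 33.3), 42.9% after 3 h (41.7 to 44.2) and 48.9% after 6 h (47.8 to 50.1), a share that no library scaling can change.

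Stat3, the transcription factor downstream of both receptor chains, was highest at 3 h. Levels were 48.3 CPM with ethanol alone (47.0 to 49.6), 79.0 CPM after 3 h (77.3 to 80.7) and 57.0 CPM after 6 h (55.8 to 58.3). The 3 h library stood apart from the others, and the 6 h library was nearer to the control. Against the control the ratio was 1.64-fold at 3 h (1.58 to 1.69), above that of 90.2% of genes. At 6 h it was 1.18-fold (1.14 to 1.22), which is in the middle of all genes, above 56.0% of them. Its log2 ratio at 6 h of 0.24 became 0.084 under TMM and -0.047 when TMM factors were taken over all genes with a count. The log2 ratio from 3 h to 6 h was -0.47 (-0.51 to -0.43), with 4.35% of genes lower.

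Socs3, the STAT3 target whose protein inhibits the receptor complex, had the largest difference among the members. The control had 49.9 CPM from 5556 UMIs (48.6 to 51.2), the 3 h library 49.8 CPM from 5325 UMIs (48.5 to 51.2) and the 6 h library 11.6 CPM from 1628 UMIs (11.05 to 12.18). The control and 3 h libraries could not be told apart by CPM, and the 6 h library was far below both. At 6 h the level was 4.30-fold lower than in the control (4.07 to 4.54), and only 0.263% of the 7608 genes had a lower log2 ratio. Its log2 ratio at 6 h of -2.10 was -2.26 under TMM and -1.99 by mean UMIs per cell. At 3 h the log2 ratio of -0.00038 became -0.11 under TMM and 0.27 by mean UMIs per cell, so the scaling sets its sign at that time. From 3 h to 6 h it was -2.10 (-2.18 to -2.02), with 0.0657% of genes lower.

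Socs2, which encodes a relative of SOCS3 known best as a brake on growth hormone signalling, followed another course. Its control level was 49.9 CPM (48.6 to 51.2), from 5556 UMIs, the same number as Socs3 under a separate identifier. Cycloheximide libraries had 65.9 CPM after 3 h (64.4 to 67.4) and 50.01 CPM after 6 h (48.84 to 51.19). Only the 3 h library stood out, at 1.32-fold of the control (1.28 to 1.37). At 6 h the log2 ratio was 0.0044 (-0.047 to 0.055), so counting error alone covers the difference, although TMM gave -0.15. The drop from 3 h to 6 h, a log2 ratio of -0.40 (-0.45 to -0.35), was smaller than that of Socs3. Even so, only 5.94% of genes had a lower ratio.

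Bcl3, a nuclear relative of the IκB proteins that acts with NF-κB subunits, resembled Socs3 in order but not in size. The control had 32.5 CPM (31.5 to 33.6), the 3 h library 32.7 CPM (31.6 to 33.8) and the 6 h library 19.6 CPM (18.9 to 20.4). Control and 3 h overlapped within counting error and the 6 h library lay below. The 6 h level was 1.66-fold lower than the control (1.58 to 1.74), with 4.99% of genes lower. Its log2 ratio of -0.73 at 6 h reached -1.01 under TMM factors over all genes with a count, just past 2-fold, and was -0.62 by mean UMIs per cell. From 3 h to 6 h the log2 ratio was -0.74 (-0.81 to -0.66), with 1.46% of genes lower.

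Sbno2, which encodes a transcriptional coregulator, was nearly flat. Its level was 16.2 CPM in control cells (15.4 to 16.9), 15.1 CPM after 3 h (14.3 to 15.8) and 13.7 CPM after 6 h (13.1 to 14.3). The control and 3 h intervals overlapped, and the 6 h library lay below both, by a log2 ratio to 3 h of -0.14 (-0.24 to -0.042). Log2 ratios were -0.10 at 3 h (-0.20 to -0.0056) and -0.24 at 6 h (-0.34 to -0.15). By mean UMIs per cell the 3 h value turned to 0.17. The genes whose windows held the STAT motif, Socs3 and Sbno2, had log2 ratios of -2.10 and -0.24 at 6 h. Those without it had -0.73 (Bcl3), -0.13 (Lifr), 0.24 (Stat3) and 0.90 (Il6st), and Socs2 had no promoter entry. A link between motif and ratio was not tested.

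**Figure D2:**
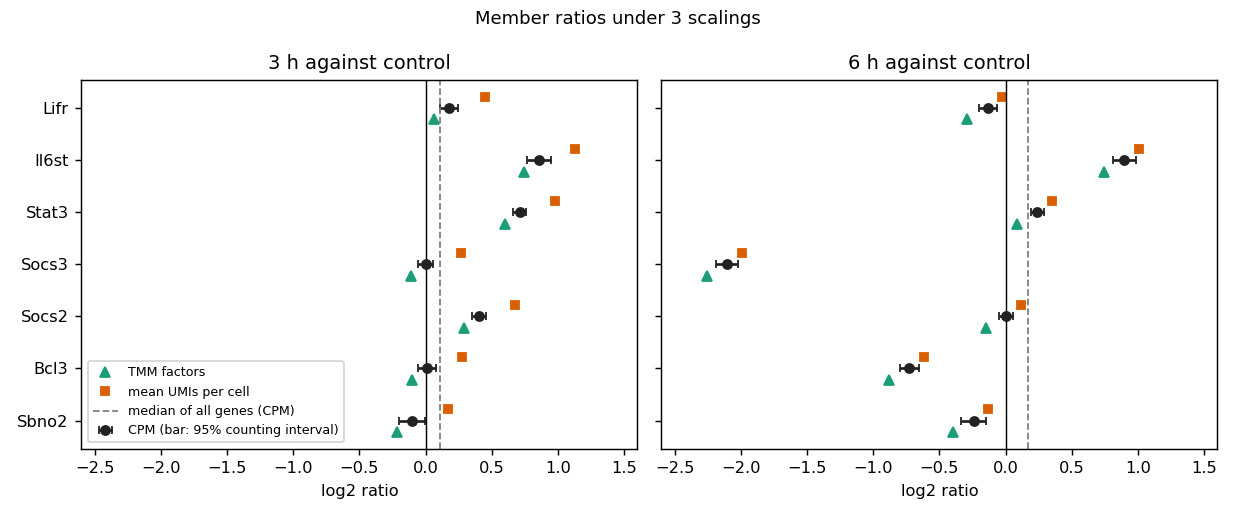
Log2 ratios of each member (rows) at 3 h and 6 h against the control by CPM (circles with 95% counting intervals), TMM factors (triangles) and mean UMIs per cell (squares), with the median of all genes by CPM as a dashed line. The scalings shift all members alike by up to 0.27, and Socs3 at 6 h stays between -2.26 and -1.99 in all 3.

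Receptor and feedback transcripts were then summed by role. For Lifr and Il6st together the control had 44.3 CPM (43.0 to 45.5), the 3 h library 59.7 CPM (58.2 to 61.1) and the 6 h library 53.8 CPM (52.5 to 55.0). For Socs3, Socs2, Bcl3 and Sbno2 together these libraries had 148.4 CPM (146.1 to 150.7), 163.5 CPM (161.1 to 165.9) and 94.9 CPM (93.3 to 96.5). At 3 h both sums were above the control, with log2 ratios of 0.43 for receptors (0.38 to 0.48) and 0.14 for feedback and target genes (0.11 to 0.17). At 6 h they lay on opposite sides of it, at 0.28 (0.23 to 0.33) and -0.64 (-0.68 to -0.61), although TMM factors over all genes with a count put the receptors at -0.0065 then and the feedback and target genes at -0.035 at 3 h. Of the UMIs of these 6 genes, receptors made up 23.0% with ethanol alone (22.4 to 23.5), 26.7% after 3 h (26.2 to 27.3) and 36.2% after 6 h (35.5 to 36.8), again a share free of library scaling. At 6 h each sum rests on a single gene for most of its difference. Among the receptors that gene is Il6st, since Lifr was below the control. Without Socs3, a choice made after the values were seen, the other 3 genes had 98.5, 113.6 and 83.3 CPM and a log2 ratio of -0.24 at 6 h (-0.28 to -0.20). Socs3 itself went from 33.6% of the feedback and target UMIs in the control to 30.5% at 3 h and 12.2% at 6 h.

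The share of cells with a UMI was compared after each cell had been thinned to 15000 UMIs. For Socs3 this share was 49.9% without cycloheximide (47.8 to 52.0, exact binomial), 45.5% after 3 h (43.1 to 47.9) and 14.9% after 6 h (13.5 to 16.3). Unthinned, these shares were 82.3%, 78.2% and 40.3%. For Il6st the thinned shares were 17.5% (15.9 to 19.1), 32.8% (30.6 to 35.1) and 31.4% (29.6 to 33.2), and unthinned 46.7%, 69.9% and 68.2%. Stat3 had 50.7%, 65.8% and 53.2%, Socs2 had 49.0%, 60.1% and 47.8%, and Bcl3 had 35.8%, 35.9% and 23.0%, in the same order. Lifr (34.2%, 39.6%, 33.6%) and Sbno2 (20.2%, 19.4%, 19.6%) changed least, and unthinned their shares were 71.0%, 78.8% and 69.4%, and 51.6%, 54.1% and 48.6%. Unthinned shares were 84.0%, 93.3% and 86.8% for Stat3, 81.0%, 90.0% and 82.4% for Socs2, and 71.1%, 72.3% and 52.9% for Bcl3. These libraries hold no second cell type that should lack the genes, so free RNA was read from barcodes of 10 to 100 UMIs. Socs3 had 62.5, 46.9 and 9.95 CPM there, and Il6st 15.8, 35.1 and 29.3 CPM. As in the cells, Socs3 was lowest at 6 h and Il6st was above the control at both times. Unlike in the cells, free Socs3 was already lower at 3 h. Its counting intervals, 54.6 to 71.3 in the control and 39.8 to 54.9 at 3 h, overlapped only at their ends. Free Il6st was highest at 3 h (29.0 to 42.1), with an interval that overlapped that at 6 h (24.2 to 35.2). If free RNA made up 10% of a thinned cell, it alone would give a Socs3 UMI in 8.95%, 6.79% and 1.48% of cells, and an Il6st UMI in 2.35%, 5.13% and 4.30%. The true share of free RNA was not estimated, so no share here counts expressing cells.

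Socs3 at 3 h had the same summed level as in the control but was spread less evenly over cells. At 15000 UMIs the mean was 0.754 UMIs per cell in the control and 0.750 at 3 h, while the variance over the mean was 1.20 and 1.62. Cells with no Socs3 UMI made up 50.1% in the control and 54.5% at 3 h, where a Poisson spread of the same mean would give 47.1% and 47.2%. The tenth of cells with the most Socs3 held 36.9% of its UMIs in the control and 42.5% at 3 h, and the highest cell had 6 and 11 UMIs. No other member reached that spread in any library: the variance over the mean of the other 6 ranged from 0.979 for Sbno2 in the control to 1.25 for Socs2 in the control. At 6 h Socs3 had a mean of 0.175 UMIs and a variance over the mean of 1.20.

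**Figure D3:**
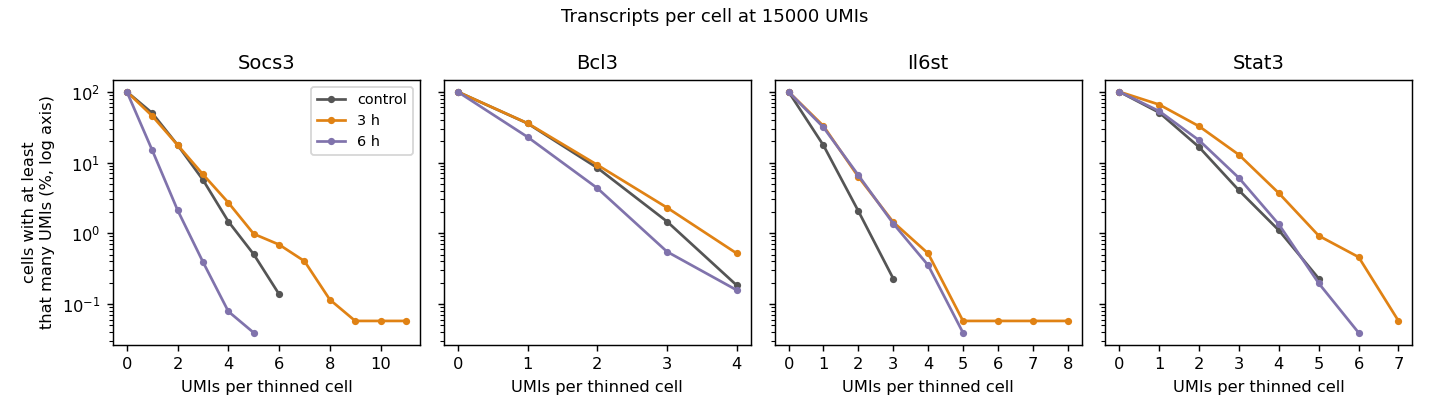
Percentage of cells (vertical axis, log scale) with at least the number of UMIs on the horizontal axis, after thinning to 15000 UMIs per cell, for Socs3, Bcl3, Il6st and Stat3 in the 3 libraries. The 3 h line of Socs3 starts below that of the control, at 45.5% against 49.9% for 1 UMI, and crosses above it to reach 11 UMIs, while the 6 h line lies below both.

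Counts of the members were hardly correlated from cell to cell. Over the 21 pairs of members, Spearman's rho ran from -0.040 to 0.048 in the control, from -0.022 to 0.071 at 3 h and from -0.0044 to 0.087 at 6 h. Cells of a library share its preparation, and in counts this sparse such values are no finding. Cells with a Socs3 UMI had 0.991 times (Bcl3) to 1.07 times (Lifr) the mean of the other 6 members in cells without one in the control, and 1.06 times (Sbno2) to 1.15 times (Stat3) at 3 h. At 6 h, with 380 cells against 2174, the ratio was 1.38 for Bcl3 and 1.20 for Socs2, but 0.999 for Stat3, 0.977 for Il6st, 0.961 for Lifr and 0.918 for Sbno2. Both receptor chains had a UMI in 6.63% of ethanol-treated control cells (5.62 to 7.76), and in 14.4% after 3 h (12.8 to 16.2) and 12.2% after 6 h (10.9 to 13.5), where the product of the separate shares gives 5.97%, 13.0% and 10.5%. Cells with a receptor UMI and no Socs3 UMI made up 21.03%, 30.6% and 45.0%, close to the 22.6%, 31.6% and 44.9% that the separate shares give, so this adds little to them.

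A list of 68 genes of LIF and gp130 signalling gives the surroundings of the members. Of these, 39 passed the floor of 10 CPM, the 7 members included. Their median ratio was 0.18 after 3 h and -0.021 after 6 h, beside 0.11 and 0.17 for all genes. At 6 h, 3 of the 39 were at least 2-fold higher and 5 at least 2-fold lower, while at 3 h the counts were 4 and 1. Over all genes the shares were 8.65% higher and 2.41% lower at 6 h, and 4.32% and 0.513% at 3 h. Without the members, the other 32 list genes had medians of 0.18 and -0.0035 at 3 h and 6 h. Of those, 3 were at least 2-fold higher and 4 at least 2-fold lower at 6 h, and 4 and 1 at 3 h. None of the 7 ligands passed the floor. Among receptors, Cntfr, the chain that binds ciliary neurotrophic factor, was lower, with log2 ratios of -0.35 after 3 h and -0.85 after 6 h, the latter -1.01 under TMM. Jak1, the kinase most tied to gp130, was the only kinase above the floor and had 34.2, 23.8 and 19.2 CPM, a log2 ratio of -0.83 at 6 h. Stat6, a relative of Stat3 that answers to interleukin 4, had ratios of 0.40 and 0.42 by CPM, and 0.29 and 0.27 under TMM.

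Socs3 was the only inhibitor past 2-fold on the lower side. Of 14 inhibitor and phosphatase genes above the floor, Socs3 and Socs2 included, 11 had CPM ratios above 0 at 6 h and 3 below. Their median was 0.26, where 64.1% of all genes lay above 0 with a median of 0.17. Under TMM 9 of the 14 were above 0, with a median of 0.10, beside 51.1% of all genes and their median of 0.011. TMM factors over all genes with a count left 5 above 0, and the share over all genes was not taken for that scaling. Socs4, another member of the SOCS family, had 14.2, 29.2 and 37.0 CPM in the control, 3 h and 6 h libraries, and ratios of 1.04 and 1.38. Pias3, which encodes an inhibitor of STAT3 binding to DNA, had 11.5, 17.8 and 23.9 CPM and a ratio of 1.06 at 6 h, which TMM brought to 0.90. Ptpn2 and Ptpn1, tyrosine phosphatases that act on JAK kinases, had ratios of 0.49 and 0.41. Elob, a subunit of the ubiquitin ligases that SOCS proteins join, had -0.55, and its partner Eloc had 0.41.

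Target genes other than the members had signs like those of all genes at 3 h by CPM and were mostly lower at 6 h. Of the 16 above the floor, 10 had ratios above 0 at 3 h and 4 at 6 h, where 64.1% of all genes lay above 0 both times, and the medians were 0.29 and -0.33. Under the other scalings 10 to 12 were above 0 at 3 h and 4 to 6 at 6 h. Junb, an AP-1 subunit gene, had 55.6, 116.2 and 38.6 CPM, with ratios of 1.06 and -0.53. Pim1, which encodes a survival kinase, had 48.8, 121.1 and 87.9 CPM and stayed above the control, as did Icam1, a cell adhesion gene, with 36.8, 119.7 and 135.8 CPM and ratios of 1.70 and 1.88. On the lower side were Klf5 and Tfcp2l1, transcription factors of the naive pluripotent state, with ratios of -1.11 and -1.06 at 6 h. Myc had -2.40 and Gbx2, a homeobox target of STAT3, had 95.3, 33.8 and 10.4 CPM, a ratio of -3.20. Klf4 had 0.47 at 3 h and -0.27 at 6 h. From 3 h to 6 h, 13 of these 16 genes were lower and 3 higher by CPM, where 57.7% of all genes lay above 0. Under each of the other scalings 15 were lower and 1 higher, with 49.9% of all genes above 0 under TMM.

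**Figure D4:**
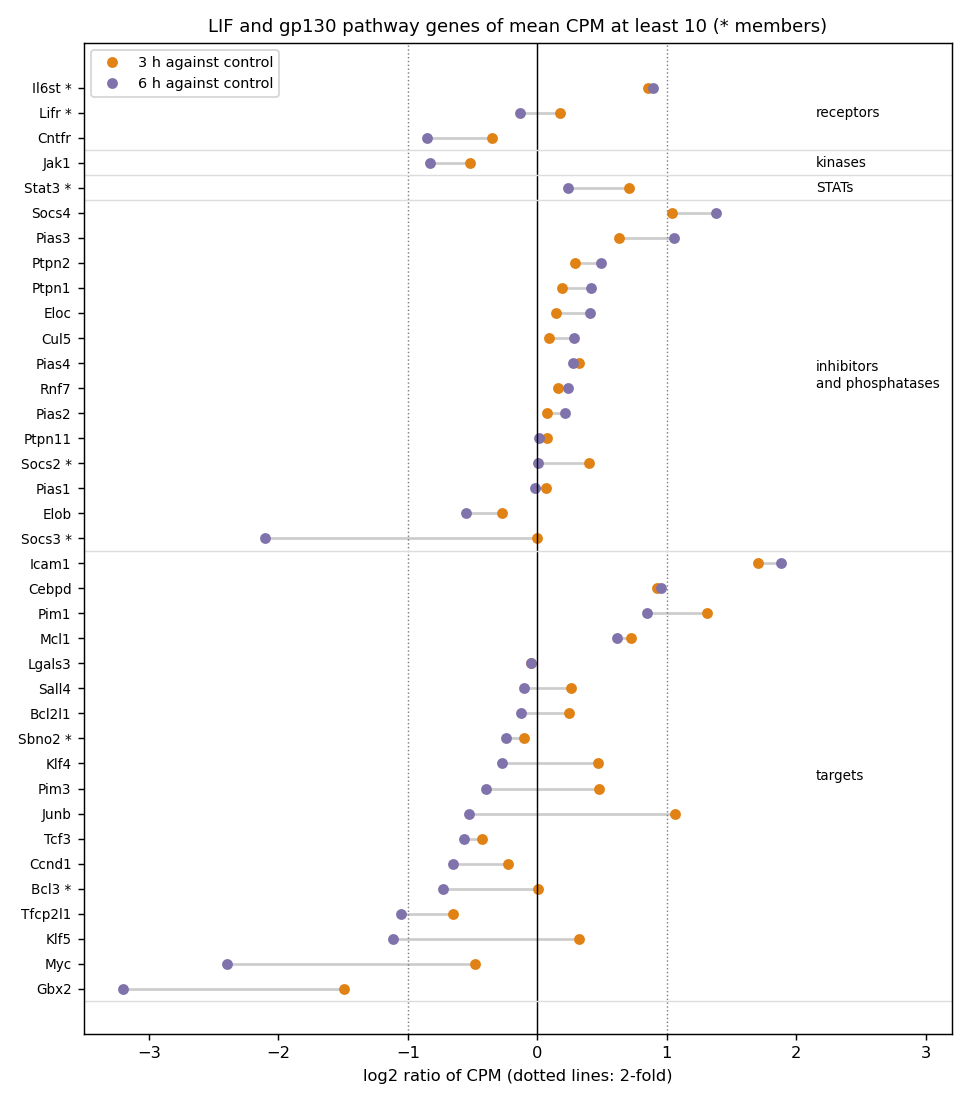
Log2 ratios of CPM against the control at 3 h (orange) and 6 h (purple), joined by a line, for genes of the list above the floor, grouped by role and with Stat3 alone drawn from its family, with members marked by an asterisk and 2-fold by dotted lines. By CPM at 6 h, 11 of 14 inhibitors lie to the right of 0, as do 64.1% of all genes. Socs3 lies far to the left. At or below -1 lie 4 of 18 targets, beside 2.41% of all genes. Under TMM 9 of the 14 inhibitors lie above 0, and 5 with TMM factors over all genes with a count, neither of them drawn.

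The genes most like each member were sought by the distance between pairs of log2 ratios, at 3 h and 6 h against the control, among 5563 other genes whose mean reached 20 CPM. With 3 libraries this is a likeness of 2 values and no more. The nearest to Socs3 were Dusp6, an ERK phosphatase gene (distance 0.13, ratios 0.11 and -2.18), Noct, a gene under circadian control (0.23, ratios -0.22 and -2.04), and Fzd5, a Wnt receptor gene (0.38, ratios -0.059 and -1.73). For Il6st they were Zfp850, Fen1 and Abraxas1, at distances of 0.016 to 0.032. For Stat3, Ubald1 lay at 0.037 and Zbtb43 at 0.089. Around Bcl3 lay Csnk1e, Ctbp2 and Hist1h1b, at 0.025 to 0.055. Lifr (Hjurp, Taf6l, Wdr82), Socs2 (Msantd2, Spata5, 2410002F23Rik) and Sbno2 (Ddb1, Eif2s3x, Zfp706) had neighbours within 0.0036 to 0.029.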

How the data were processed

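Single-cell RNA sequencing libraries of E14 cells were used, 1 each for the ethanol control, 3 h and 6 h of cycloheximide. The deposited matrices hold unnormalized UMI counts by gene and barcode, made by Cell Ranger 4.0.0 with build mm10 per the submitters' processing notes. The annotation and the handling of shared or antisense reads are not given in the sources used here. No cells had been called: each matrix lists 6794880 barcodes, and 58553 to 67302 barcodes of 10 to 100 UMIs served as free RNA.

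Counts of kept cells were summed, with no count model. No doublets were removed. Intervals are 95%: exact Poisson for CPM, exact conditional binomial for ratios and Clopper-Pearson for shares. TMM and RLE factors came from edgeR 4.0.16 in R 4.3.3. The rest used Python 3.11.15, numpy 2.4.6, scipy 1.17.1, pandas 2.3.3 and matplotlib 3.10.9, tested on simulated data. Named genes are the members, list genes past 2-fold at a mean of at least 10 CPM, the 3 genes nearest each member (some listed and near genes are not reported here), and examples by role chosen after their values were seen. Members and lists were chosen with earlier results of these data known.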

Additional observations from a re-analysis of the deposited data

Results flagged for a closer look

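Lifr lay on opposite sides of the control at the treatment times, at log2 values of 0.18 after 3 h and -0.13 after 6 h, with counting intervals that leave out 0 in each case. No test of this difference was possible, because each time has 1 library, and duration and library cannot be told apart. The 3 h ratio was 0.0014 under TMM factors over all genes with a count, and the 6 h ratio was -0.026 by mean UMIs per cell.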

How the results depend on the processing

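Receptors had log2 ratios at 3 h of 0.32 (TMM), 0.32 (RLE), 0.26 (TMM over all genes with a count), 0.70 (mean UMIs per cell), 0.49 (cells weighted equally) and 0.49 (no lower mitochondrial limit). At 6 h they had 0.12, 0.12, -0.0065, 0.39 by the 4 scalings in that order and 0.34 without the mitochondrial limit, so the sign at 6 h rests on the scaling. Feedback and target genes had 0.028, 0.025, -0.035 and 0.41 at 3 h by the same scalings, 0.17 without the mitochondrial limit, 0.17 with 10% free RNA subtracted and 0.21 without Socs3. At 6 h they had -0.80, -0.81, -0.93 and -0.54, then -0.59 with free RNA subtracted and -0.24 without Socs3. Among members, Stat3 at 6 h turned to -0.047 under TMM over all genes with a count and Sbno2 at 3 h to 0.17 by mean UMIs per cell. The sum without Socs3 was chosen after seeing the data. A UMI minimum of 30000, a mitochondrial limit of 10%, a prior of 5 counts and a limit of 2 times the median UMIs per cell moved none of the 27 ratios beyond its counting interval.

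The share of genes past 2-fold depends on the floor. With floors of 50 and 1 CPM it was 2.76% and 7.22% higher and 0.272% and 0.857% lower at 3 h, and 5.58% and 13.8% higher at 6 h. At 6 h, 1.498% were lower with a floor of 50 CPM and 3.67% under TMM. Between 6 h and 3 h, 0.0681% and 1.38% were higher with those floors. Depth limits shares more than sums: thinned to 30000 UMIs, a Socs3 UMI was found in 72.5%, 65.3% and 25.7% of cells.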

Other observations

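Several ligand genes of the gp130 family, all under the floor of 10 CPM, were higher after cycloheximide. Lif itself had 129 UMIs or 1.16 CPM in the control, 207 UMIs or 1.94 CPM at 3 h and 436 UMIs or 3.11 CPM at 6 h. Il11, an interleukin that signals through gp130, had 52, 188 and 394 UMIs, or 0.467, 1.76 and 2.81 CPM, and Cntf had 65, 119 and 314 UMIs, or 0.583, 1.11 and 2.24 CPM. Ctf1 did not share this order, with 4.41, 3.93 and 3.63 CPM. Il11ra1, the interleukin 11 receptor gene, had 4.55, 6.87 and 9.44 CPM. Among low targets, Zfp36, which encodes an RNA decay factor, had 5.38, 4.18 and 1.88 CPM, and Ier3 had 4.09, 1.55 and 1.59 CPM. These genes were picked after their values were seen, and have no replicate check.

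The pentamer ATTTA, a letter string common in short-lived transcripts, was counted in the longest annotated 3′ UTR of each member in GENCODE M21. Socs3 had 4 in 1474 bases, or 2.71 per kb, and 24.2% of 7462 genes above 10 CPM had as many per kb or more. Lifr had 11 in 6320 bases and Il6st 9 in 5641 bases, or 1.74 and 1.595 per kb. Sbno2 had 1 in 424 bases, or 2.36 per kb, Socs2 2 in 1163 bases, or 1.72 per kb, Stat3 2 in 3701 bases, or 0.54 per kb, and Bcl3 0 in 410 bases. A link between these densities and the ratios was not tested. The median gene had 1.38 per kb.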
